A study of Mus musculus with 6 samples.

Results

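The subunits of oxidative phosphorylation, the respiratory chain and the ATP synthase of mitochondria, were examined in N9 microglia with and without lipopolysaccharide (LPS). Members were the protein-coding rows of the deposited gene counts whose symbol began with Ndufa, Ndufb, Ndufc, Ndufs or Ndufv and a digit, with Uqcr, with Cox and a digit from 4 to 8, or with Atp5, together with Cyc1 and the mitochondrially encoded subunits, whose symbols begin with mt-. This gave 95 of 54532 genes, 82 encoded in the nucleus and 13 in mitochondrial DNA. N9 is an immortalized microglial line from mouse brain, and LPS, from the outer membrane of gram-negative bacteria, activates these cells. RNA-seq libraries came from 3 samples of N9 cells left untreated (control) and 3 samples given LPS at 1 µg/ml for 6 h. All 6 libraries were from the same cell line in the same medium, and the labels do not say whether replicates were separate cultures, so p-values measure only the spread between these samples.

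Oxidative phosphorylation uses the electrons of NADH and succinate to make ATP. Complexes I, III and IV pump protons across the inner mitochondrial membrane as electrons pass to oxygen, and complex V, the ATP synthase, lets the protons back through a rotor to drive ATP synthesis. Mitochondrial DNA encodes a few core subunits of complexes I, III, IV and V, while nuclear genes encode the other core subunits and the many small accessory subunits. Microglia are known to shift toward glycolysis after LPS.

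Total counts per library ran from 16363767 to 17956772. Levels are CPM computed on library sizes after TMM scaling, whose factors were 1.034 to 1.036 in the control and 0.9646 to 0.9699 in the LPS libraries. The microglial markers Csf1r, Cd68 and Spi1 had at least 4804 counts in every library, while Aif1 and P2ry12 had 3 to 9 and Cx3cr1 33 to 68. Of 14 markers of neurons, astrocytes and oligodendrocytes, 9 were below the filter on low counts, among them Rbfox3, Aqp4 and Olig2 with 0 to 2 counts. The other 5 included Map2, Aldh1l1 and Mbp, with 252 to 672 counts per library, which were lower with LPS (log2 fold changes of -0.41, -0.29 and -0.34), and their part in the results was not tested. Markers of liver and gut were seen in some libraries. Of 18 hepatocyte markers, 16 were below that filter, and these 16 summed to 4, 331 and 504 counts in control 1, 2 and 3 and to 7, 6 and 17 in LPS 1, 2 and 3, led by Alb with 2, 155 and 292 in the control libraries. Of the other markers of that list, Hp, an acute-phase protein, went another way. It had 883, 876 and 949 counts against 1965, 2115 and 2075 and was higher with LPS. Ambp had 86, 124 and 112 counts against 74, 80 and 100 and was not called. With Hp included, the whole list summed to 973, 1331 and 1565 against 2046, 2201 and 2192 counts. A list of 12 intestinal epithelial markers summed to 27, 286 and 6 counts in the control and 5, 10 and 172 in the LPS libraries. Control 2 and control 3 stood apart by the 16 hepatocyte markers below the filter, and control 2 and LPS 3 by intestinal ones. Both lists were written after these values had been seen, and counts of called members are also given without these libraries, with the values of the called members where the call was lost.

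edgeR's quasi-likelihood test covered 87 of the 95 members, 75 nuclear and 12 mitochondrial, among 12296 genes tested. A gene was called at an adjusted p under 0.05 (Benjamini-Hochberg over all genes tested). Of the 75 nuclear-encoded subunits, 16 were higher and 0 lower with LPS, where 18.7% of all genes tested were higher and 15.7% lower. Of the 12 mitochondrially encoded subunits, 0 were higher and 2 lower. At an unadjusted p under 0.05, edgeR had 2 nuclear members lower and 0 mitochondrially encoded members higher, and after adjustment DESeq2 called 14 nuclear members higher and 0 lower, and 0 mitochondrially encoded members higher and 1 lower. No member reached an absolute log2 fold change over 1.5, which 2.65% of all genes tested passed together with the adjusted p. The median log2 fold change was 0.07 over the nuclear and -0.08 over the mitochondrially encoded members, against 0.00 over all genes tested. Over the 5 tested mitochondrially encoded members with at most 204 counts per library it was -0.10, and over the other 7 it was -0.02. Without control 2 the nuclear median was 0.02 and the mitochondrially encoded one 0.03, and without control 2 and control 3 they were 0.01 and 0.17. All LPS libraries lay above all control libraries for 19 nuclear members (23.7% of all genes tested) and below them for 0 (21.5% of all genes tested). The nuclear calls were small, with log2 fold changes from 0.14 to 0.68. Scaled by total counts alone, which lowers the values of all genes together, the median of all genes was -0.09 and the nuclear median -0.03, still above it, and 5 nuclear members were higher and 6 lower. Without control 2 and LPS 3, 7 were higher and 0 lower, and without control 2 and control 3, 9 were higher and 2 lower.

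**Figure D1:**
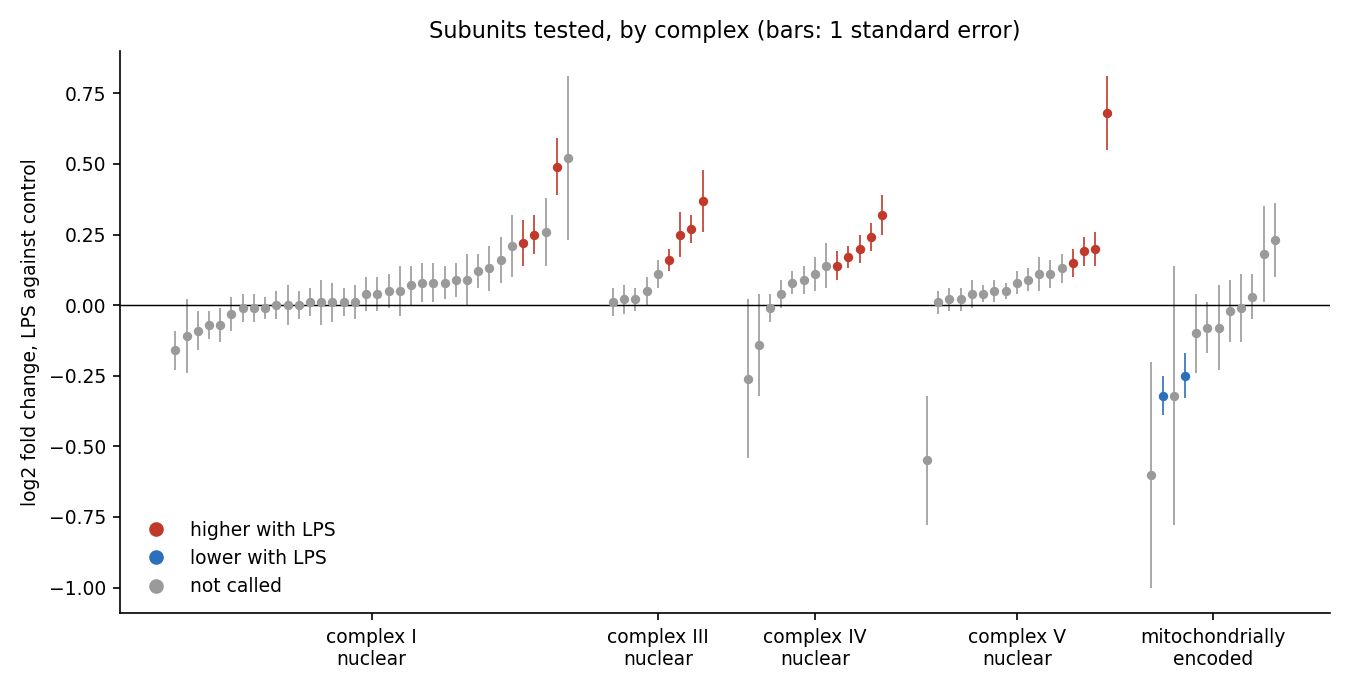
Log2 fold change (LPS against control) of the 87 members tested, ordered within the nuclear members of each complex and within the mitochondrially encoded members. Points are fitted values, bars are 1 standard error, and colour gives the call at an adjusted p under 0.05; the highest red point is Atp5k at 0.68 and the 2 blue points are mt-Nd1 at -0.32 and mt-Nd2 at -0.25.

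Complex I, which oxidizes NADH, had 37 nuclear members, of which 36 were tested, 3 were higher and 0 lower, with a median log2 fold change of 0.04. Ndufa3, an accessory subunit, lies on chromosome 7 of mm10 from 3617373 to 3620327 (ENSMUSG00000035674). It had 23.3, 23.4 and 24.3 CPM in the control and 31.2, 29 and 39.4 CPM in the LPS libraries. The groups did not overlap, and LPS 3 was highest. Its log2 fold change was 0.49 (standard error, SE, 0.10; edgeR adjusted p = 0.00175). Ndufc1, a membrane-arm accessory subunit, went from 34.9 ± 2.78 to 41.4 ± 1.93 CPM (SD, n = 3), with a log2 fold change of 0.25 with an edgeR adjusted p = 0.017. Ndufa2, another accessory subunit, was called at an edgeR adjusted p of 0.045 with 98.1, 83.5 and 94.4 CPM in the control and 98.3, 100 and 124 CPM in the LPS libraries, so that LPS 1 lay barely above control 1. Without control 2 and LPS 3, Ndufa2 and Ndufc1 were no longer called (log2 fold changes of 0.04 and 0.21), and without control 2 and control 3 Ndufa2 was not called (0.13). Each was called in 3 of the 6 fits with a library left out. Ndufa2 was also not called with robust dispersion (edgeR adjusted p = 0.163), with RLE factors, another scaling (0.0504), or with a trend over gene length removed from each library, where its log2 fold change was 0.14 (edgeR adjusted p = 0.128). None of the 7 core subunits of its peripheral arm, which carries electrons from NADH to ubiquinone, was called. Ndufb2 had the highest fitted value of the complex at 0.52, but with 34 to 104 counts per library and an edgeR adjusted p = 0.187 it was not called.

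Complex III passes electrons from ubiquinol to cytochrome c. All 9 of its nuclear members were tested, 4 were higher and 0 lower, and the median log2 fold change was 0.11. Uqcrh, the hinge protein that contacts cytochrome c1 (chromosome 4, 116066965 to 116075071, ENSMUSG00000063882), had 94, 93.5 and 93.2 CPM in the control libraries. In the LPS libraries it had 108, 111 and 118 CPM. Every LPS library lay above every control library, and the control libraries were within 1 CPM of each other. The log2 fold change was 0.27 (SE 0.05, edgeR adjusted p = 4.1e-04). Uqcrb, which helps to form the ubiquinone pocket, had 41.6, 54.5 and 64.3 CPM in the control and 63.1, 69.8 and 74.8 CPM in the LPS libraries, with control 3 inside the LPS range. Its log2 fold change of 0.37 (edgeR adjusted p = 0.0203) was not called by DESeq2 (adjusted p = 0.163) or with robust dispersion (0.208), and 25.5% of its 50-base windows also occurred in another annotated gene. Left-out libraries moved this value from 0.21 without control 1 (edgeR adjusted p = 0.0542) to 0.52 without control 3, and the call was also lost without LPS 2, without LPS 3, and without control 2 and LPS 3 (edgeR adjusted p = 0.105). The value of Uqcrb without control 2 and control 3 was 0.73 (edgeR adjusted p = 1.2e-04). Uqcr11, a small membrane subunit, was called at 0.25 with overlapping groups, and the call was lost without control 2, control 3, LPS 2 or LPS 3, where its values were 0.17 to 0.26, and with the length trend removed (0.18). Without control 2 and LPS 3 the Uqcr11 value was 0.13 (edgeR adjusted p = 0.326) and without control 2 and control 3 it was 0.06 (edgeR adjusted p = 0.717). Uqcrq (0.16) was called without overlap and with any 1 library left out, but not in the fits without 2 libraries (0.14 and 0.17, edgeR adjusted p = 0.0715 and 0.0676). The electron-carrying subunits Cyc1 (0.02) and Uqcrfs1 (0.05) and the large core proteins Uqcrc1 (0.02) and Uqcrc2 (0.01) were not called, and scaled by total counts alone these values lay between -0.09 and -0.05.

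Complex IV, cytochrome c oxidase, hands the electrons to oxygen. Of its 18 nuclear members 13 were tested, 5 were higher and 0 lower. Cox7c, a small membrane subunit (chromosome 13, 86044816 to 86046904, ENSMUSG00000017778), had 101, 110 and 125 CPM in the control and 136, 134 and 152 CPM in the LPS libraries. The groups were separate, and control 3 was the closest to the LPS range. The log2 fold change was 0.32 (SE 0.07, edgeR adjusted p = 0.00237), and 22.1% of its windows were shared with other genes. Cox6c had 93.3, 98.3 and 96.8 CPM against 110, 109 and 122 CPM, without overlap, a log2 fold change of 0.24 (SE 0.05, edgeR adjusted p = 0.0022). Cox6b1, which faces the intermembrane space, went from 178 ± 5.46 to 204 ± 7.03 CPM (SD, n = 3), an increase of 14.5% with an edgeR adjusted p = 0.00368. Its log2 fold change of 0.20 was 0.10 when scaled by total counts alone (edgeR adjusted p = 0.108) and 0.13 with the length trend removed (edgeR adjusted p = 0.0501), and it was called in neither. Cox7a2 (0.17) and Cox7b (0.14) were also higher, Cox7b with an edgeR adjusted p of 0.0306 that was lost when control 2, control 3 or LPS 3 was left out. In the fits without control 2 and LPS 3 and without control 2 and control 3, neither Cox7a2 (0.15 and 0.20) nor Cox7b (0.07 and 0.12) was called.

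Several complex IV subunits exist as ubiquitous and tissue-specific forms. The ubiquitous forms Cox4i1, Cox6a1, Cox6b1, Cox7a2, Cox7b and Cox8a stood between 111 and 515 CPM in every library. Their lung, muscle or testis counterparts had few or no counts. Cox4i2, the hypoxia-linked form of Cox4i1, had 4, 2 and 2 counts in the control and 0, 0 and 2 in the LPS libraries, and Cox7b2 and Cox8b had at most 1 count and Cox6b2 and Cox8c had 0. The muscle forms Cox6a2 (3.61 to 4.96 CPM) and Cox7a1 (1.52 to 3.47 CPM) passed the filter and were not called. Among the ubiquitous forms that were not called, Cox4i1 had 471 ± 17.6 and 497 ± 17.6 CPM (log2 fold change 0.08, edgeR adjusted p = 0.17), Cox8a had a log2 fold change of 0.09 and Cox6a1 of -0.01. Cox7a2l, which takes part in supercomplex assembly, had a log2 fold change of 0.04. Ndufa4, named for complex I and also known as a complex IV subunit, had 0.08, and its hypoxia-linked relative Ndufa4l2 had 0, 2 and 1 counts against 0, 5 and 0. AA467197, a paralog of Ndufa4 that is known to be induced by inflammatory stimuli and is not a member by name, had 3, 2 and 0 counts against 4 in each LPS library and was below the filter.

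Complex V had 18 nuclear members, of which 17 were tested, 4 were higher and 0 lower. Atp5k, the e subunit that helps ATP synthase to form dimers (chromosome 5, 108433244 to 108434448, ENSMUSG00000050856), had 20.8, 24.1 and 30.4 CPM in the control libraries. In the LPS libraries it had 34.4, 40.2 and 45.9 CPM. The groups were separate, although both spread widely. This was the highest value of any member, a log2 fold change of 0.68 (1.6-fold, SE 0.13, edgeR adjusted p = 6.4e-04). Atp5e, the epsilon subunit of the central stalk, went from 119 ± 8.51 to 136 ± 11.5 CPM (SD, n = 3, edgeR adjusted p = 0.0244), and Atp5mpl, a small membrane subunit, from 71.9 ± 4.11 to 82.1 ± 1.99 CPM (SD, n = 3, edgeR adjusted p = 0.0119). Without control 2 and LPS 3 neither was called (log2 fold changes of 0.08 and 0.19), and without control 2 and control 3 Atp5e was not called (0.12). Atp5j (0.15) was the remaining call, and it was not called in these fits (0.09 and 0.06). Atp5e and Atp5j were each called in 2 and Atp5mpl in 4 of the 6 fits with a library left out. The catalytic head subunits, the most abundant nuclear members, moved little. Atp5b, which holds the catalytic sites, had 2118, 1951 and 2010 CPM in the control and 2154, 2100 and 2030 CPM in the LPS libraries, for a fitted log2 change of 0.05 (edgeR adjusted p = 0.301), or -0.05 when scaled by total counts alone. The 3 genes for the rotor ring had log2 fold changes of 0.02 (Atp5g1), 0.01 (Atp5g2) and 0.11 (Atp5g3), and none was called. Atp5s, a factor outside the structural complex, had the lowest nuclear value at -0.55 with 34 to 85 counts per library (edgeR adjusted p = 0.0817). The deposited table holds a second Atp5o row with 0 counts in every library, and 89.8% of its windows were shared with other genes.

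**Figure D2:**
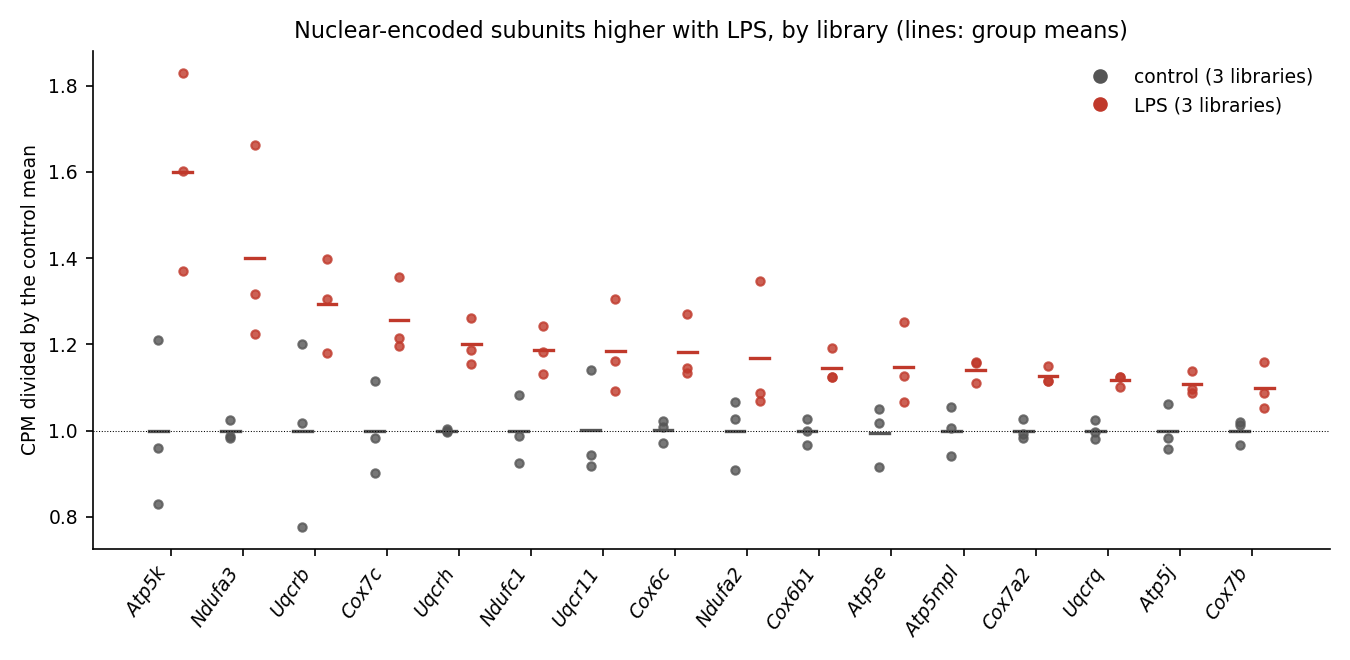
CPM of the 16 nuclear members that were higher with LPS, divided by the mean of the 3 control libraries, with a point for each library and a line for each group mean. For 14 of the 16 the LPS points lie above all control points, and Uqcrb and Uqcr11 overlap.

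Atp5k, Ndufa3, Cox7c, Uqcrh and Cox6c were called in all 17 other fits, which changed the scaling, filter, dispersion or model or left out a library, and again in the fit without control 2 and LPS 3, which keeps control 3 with its hepatocyte markers, and in the fit without control 2 and control 3, which keeps LPS 3 with its intestinal ones. Under total counts alone their log2 fold changes were 0.58, 0.39, 0.22, 0.17 and 0.14, and they were the 5 of the 16 that were called there.

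What the called nuclear members shared was size, and most were accessory subunits. In the classes used here, 15 of 54 tested accessory, 1 of 14 catalytic and 0 of 3 rotor ring members were higher. These classes count Atp5e as catalytic and Uqcrc1 and Uqcrc2 as accessory. The median coding length was 354 bases for accessory and 858 bases for catalytic members, so size and class went together. The 16 had coding lengths from 156 to 333 bases, and the 59 tested members that were not called ran from 192 to 2181 bases. Of the 21 tested nuclear members with at most 300 coding bases, 14 were higher (66.7%). The share was 2 of 35 (5.71%) above 300 and up to 600 bases and 0 of 19 above 600 bases. Among all tested protein-coding genes the shares higher in these ranges were 27.9%, 18.4% and 19.7%, and among genes with at most 300 coding bases that are neither members nor ribosomal proteins it was 19.8% of 172. Genes whose symbols begin with Rpl or Rps, most of them ribosomal proteins, had 9 of 10 higher with at most 300 coding bases, 30 of 50 above 300 and up to 600 bases, and 12 of 34 above 600 bases. Across the 75 nuclear members, log2 fold change and log2 coding length had a Pearson r of -0.43 and a Spearman rho of -0.61, and across 11014 protein-coding genes -0.02 and -0.04. These are descriptions over genes of the same libraries, and the bounds of 300 and 600 bases were chosen after the values had been seen. The summed level of nuclear members with at most 300 coding bases was 2285, 2187 and 2307 CPM in the control and 2505, 2486 and 2688 CPM in the LPS libraries, without overlap. Above 600 bases the sums were 7722, 7260 and 7439 CPM against 7844, 7575 and 7519 CPM, with overlap. When a trend over gene length was removed from each library, 13 nuclear members were higher, 12 of them among the 16, and 1 (Ndufb3) was lower. Gene length here is the length given with the counts. It differs from coding length, as for Cox6c with 3567 against 228 bases, and no trend over coding length was removed. The part of library preparation in this relation to size was not tested.

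**Figure D3:**
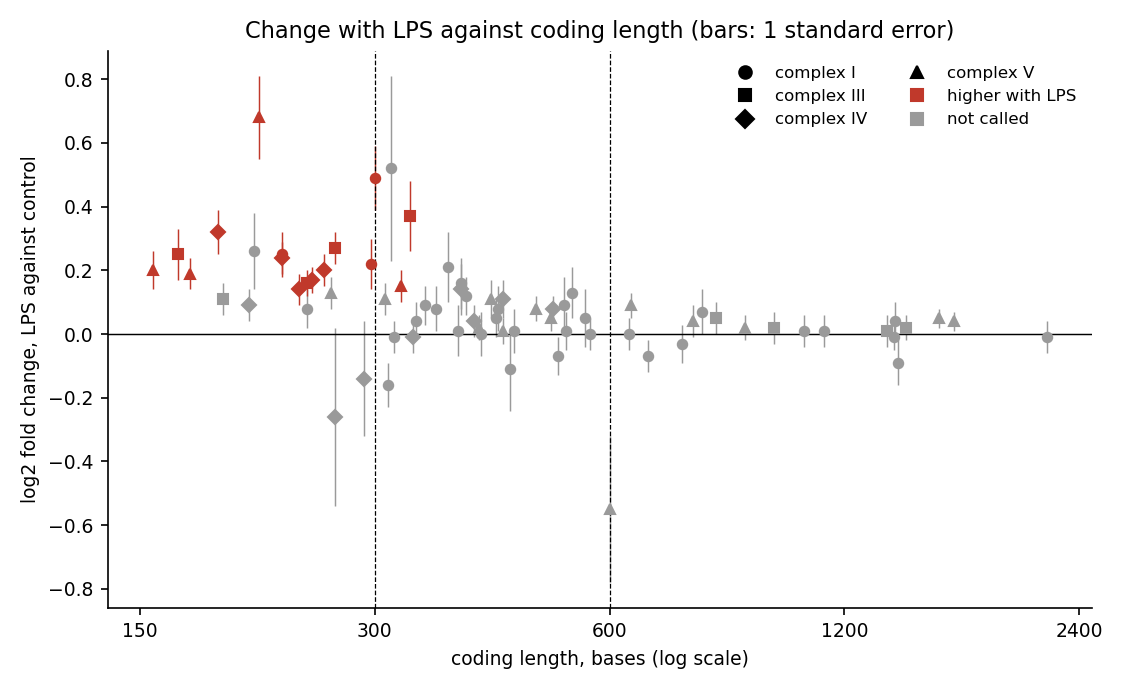
Log2 fold change (LPS against control) of the 75 tested nuclear members against coding length in bases on a log scale, with 1 standard error. Shapes give the complex, red marks members higher with LPS, and dashed lines stand at 300 and 600 bases; 14 of 21 members up to 300 bases are red and 0 of 19 above 600 bases.

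Nuclear genes of this group are known targets of the transcription factors NRF1, GABP and YY1. Promoters (250 bases before to 50 after the start, RefSeq, GRCm38.p6) were found for 63 of the 82 nuclear members, 60 of them tested. A 10-base form of the NRF1 motif with 1 free base occurred on either strand in 14 of these 60 promoters (23.3%), against 11.5% of 8791 promoters of tested protein-coding genes. CCGGAAG, the core bound by GABP and other ETS factors, occurred in 13 of 60 (21.7%, against 19.9%), and AAGATGGC, the YY1 motif, in 8 of 60 (13.3%, against 5.19%). Of the 11 matched promoters of members that were higher with LPS, 1 held the NRF1 letters, 5 the ETS letters and 2 the YY1 letters. Of the 49 promoters of tested members that were not called, 13 held the NRF1 letters, 8 the ETS letters and 6 the YY1 letters. Of the 8 tested regulators of these genes 2 were higher, where 18.7% of all genes tested were. The 2 were Esrra, a nuclear receptor that activates such genes (log2 fold change 0.42), and Pprc1, a coactivator (0.14, edgeR adjusted p = 0.0447). Nrf1 itself had a log2 fold change of -0.08, Gabpa of 0.01 and Ppargc1b, another coactivator, of 0.06, and none of these was called. The promoters of Atp5k (chr5:108434350-108434649, minus strand), Uqcrh (chr4:116075021-116075320, minus strand), Ndufa3 (chr7:3617123-3617422, plus strand) and Cox7c (chr13:86046746-86047045, minus strand), the genes called in all fits above whose promoters were matched, are shown with that of Atp5b (chr10:128083057-128083356, plus strand), which was not called. Capitals mark the 3 motifs on either strand, and the 5 genes were chosen after their values had been seen.
Atp5k: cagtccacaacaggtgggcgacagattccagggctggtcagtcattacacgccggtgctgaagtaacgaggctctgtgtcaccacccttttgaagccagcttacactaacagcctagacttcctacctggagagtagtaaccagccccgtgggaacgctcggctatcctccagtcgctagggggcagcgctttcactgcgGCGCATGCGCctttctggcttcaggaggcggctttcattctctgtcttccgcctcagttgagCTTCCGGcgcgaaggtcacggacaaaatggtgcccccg
Uqcrh: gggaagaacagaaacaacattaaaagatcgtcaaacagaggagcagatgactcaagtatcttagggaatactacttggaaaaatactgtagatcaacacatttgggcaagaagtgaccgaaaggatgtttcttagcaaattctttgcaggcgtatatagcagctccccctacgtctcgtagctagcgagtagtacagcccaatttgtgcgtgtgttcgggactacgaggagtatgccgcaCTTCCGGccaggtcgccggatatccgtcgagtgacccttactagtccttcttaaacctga
Ndufa3: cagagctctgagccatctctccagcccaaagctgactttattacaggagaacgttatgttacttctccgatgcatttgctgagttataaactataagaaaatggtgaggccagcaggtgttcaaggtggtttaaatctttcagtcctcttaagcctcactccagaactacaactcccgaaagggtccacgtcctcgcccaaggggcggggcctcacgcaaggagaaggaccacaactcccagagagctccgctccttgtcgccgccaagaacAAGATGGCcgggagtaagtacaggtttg
Cox7c: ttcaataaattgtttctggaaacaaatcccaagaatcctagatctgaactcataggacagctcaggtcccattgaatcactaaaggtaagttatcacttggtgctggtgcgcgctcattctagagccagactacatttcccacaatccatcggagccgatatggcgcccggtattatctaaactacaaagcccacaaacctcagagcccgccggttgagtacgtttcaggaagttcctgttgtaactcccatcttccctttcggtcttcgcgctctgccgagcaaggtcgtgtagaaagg
Atp5b: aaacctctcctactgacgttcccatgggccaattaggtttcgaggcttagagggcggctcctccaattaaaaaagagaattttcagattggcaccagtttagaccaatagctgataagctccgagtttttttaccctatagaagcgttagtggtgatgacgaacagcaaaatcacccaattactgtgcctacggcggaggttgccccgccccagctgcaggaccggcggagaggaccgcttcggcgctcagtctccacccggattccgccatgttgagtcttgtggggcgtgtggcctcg
Atp5k holds NRF1 and ETS letters, Uqcrh ETS letters and Ndufa3 YY1 letters, while Cox7c, called, and Atp5b, not called, hold none of the 3.

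Mitochondrial DNA is transcribed as long precursors that are cut into messenger, ribosomal and transfer RNAs, so that its subunit genes share their transcription. The 13 mitochondrially encoded members took 0.576%, 0.74% and 0.657% of all counts in the control and 0.503%, 0.611% and 0.656% in the LPS libraries, and these ranges overlapped. The nuclear members took 1.43%, 1.33% and 1.38% against 1.36%, 1.33% and 1.37%. Replicate 1 was the lowest of its group for all 7 mitochondrially encoded members with a mean over 1000 counts, in the control and in the LPS libraries alike. Control 1 and LPS 1, and LPS 2 as well, had few counts on the intestinal markers and on the 16 hepatocyte markers below the filter. The part of those markers' cells in the mitochondrial levels was not tested.

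mt-Nd1, a core subunit of complex I at the ubiquinone channel (positions 2751 to 3707 of the mitochondrial chromosome, ENSMUSG00000064341), had 1045, 1275 and 1118 CPM in the control libraries. In the LPS libraries it had 810, 926 and 1023 CPM. The highest LPS library was below the lowest control library by a small margin. The log2 fold change was -0.32 (SE 0.07, edgeR adjusted p = 0.00404). The call was lost with robust dispersion (adjusted p = 0.139), stood at 0.0492 in DESeq2, and was lost without control 2 and control 3, where the log2 fold change was -0.18. mt-Nd2, also of complex I, had 371, 467 and 417 CPM against 311, 355 and 391 CPM, with LPS 3 inside the control range. Its log2 fold change of -0.25 (SE 0.08, edgeR adjusted p = 0.0277) was not called by DESeq2 (adjusted p = 0.173), with robust dispersion (0.24) or in 4 of the 6 fits with a library left out, and without control 2 and control 3 it was -0.07 (edgeR adjusted p = 0.644).

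The other well-counted members were not called. mt-Co1, the catalytic core of complex IV and the member with the most counts of all, had 2659, 3380 and 3043 CPM in the control and 2638, 3243 and 3392 CPM in the LPS libraries (log2 fold change 0.03). mt-Cytb of complex III had 629, 814 and 732 CPM against 594, 705 and 766 CPM (-0.08). mt-Nd4 (-0.01) and mt-Nd5 (-0.02) of complex I lay near 0. mt-Nd6, the member encoded on the opposite strand to the other 12, had 117, 178 and 151 CPM against 143, 175 and 204 CPM, a log2 fold change of 0.23 (SE 0.13, edgeR adjusted p = 0.198). This value moved with single libraries, from 0.07 without control 1 and 0.10 without LPS 3 to 0.35 without LPS 1 and 0.37 without control 2, where mt-Nd6 was called (edgeR adjusted p = 0.0443 and 0.0351), and it was called at 0.57 without control 2 and control 3. With the replicate number as a block, mt-Nd6 was called at 0.23 (edgeR adjusted p = 0.0113). Without the filter on low counts it was called at 0.22 (edgeR adjusted p = 1.6e-04). Use of strand in the counting is not given in the sources used here, so that reads from the opposite strand at mt-Nd6 cannot be told apart.

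Ratios between members cancel the level of each library. mt-Nd1 stood at 1.66, 1.57 and 1.53 times the counts of mt-Cytb in the control and at 1.36, 1.31 and 1.34 times in the LPS libraries. The ratio of mt-Nd2 to mt-Cytb was 0.589, 0.573 and 0.57 against 0.523, 0.503 and 0.51. Both ratios were lower in every LPS library than in every control library. The ratio of mt-Co1 to mt-Cytb went the other way, from 4.23, 4.15 and 4.16 to 4.44, 4.6 and 4.43, and that of mt-Nd6 to mt-Cytb from 0.186, 0.218 and 0.206 to 0.24, 0.248 and 0.266. The ratios of the other 2 well-counted members to mt-Cytb overlapped between the groups, at 0.732, 0.798 and 0.732 against 0.747, 0.812 and 0.791 for mt-Nd5 and at 0.417, 0.441 and 0.427 against 0.41, 0.468 and 0.462 for mt-Nd4. The 6 ratios were chosen after the values had been seen and have no test. The ribosomal RNAs of the same chromosome, which are no members and were singled out after their values were seen, were higher with LPS. mt-Rnr1 had 223, 243 and 217 CPM in the control and 480, 528 and 552 CPM in the LPS libraries, for a fitted log2 change of 1.19 (SE 0.06, edgeR adjusted p = 3.2e-10). mt-Rnr2 had 156 ± 12.8 and 277 ± 13 CPM (SD, n = 3), with a log2 fold change of 0.83 with an edgeR adjusted p of 3.4e-08. How ribosomal RNA was removed from these libraries, which sets how much of it is counted, is not given in the sources used here.

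**Figure D4:**
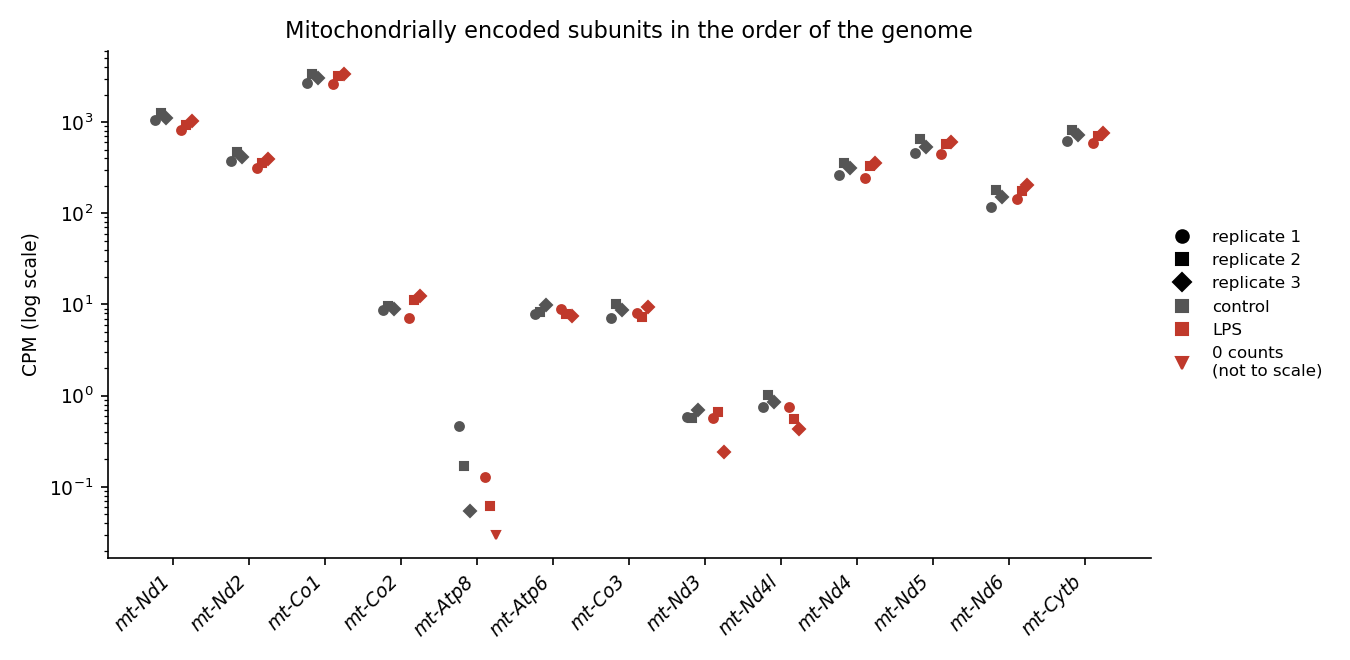
CPM (log scale) of the 13 mitochondrially encoded members in each library, in the order of the genome, with shapes for the replicate numbers and colours for the groups. mt-Co1 stands highest at 2638 to 3392 CPM, mt-Co2, mt-Atp6 and mt-Co3 lie near 10 CPM, and the triangle marks mt-Atp8 in LPS 3, with 0 counts.

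The mitochondrially encoded members fell into 2 ranges of level. Per kilobase of gene length in the control libraries, mt-Co1 had 1959, mt-Nd1 1198, mt-Cytb 634, mt-Nd2 403, mt-Nd5 301, mt-Nd6 286 and mt-Nd4 226 CPM per kb. mt-Co2, mt-Atp6 and mt-Co3 had 13.3, 12.7 and 11 CPM per kb, and mt-Nd4l, mt-Nd3 and mt-Atp8 had 2.96, 1.77 and 1.13. The lower 6 are neighbours on the mitochondrial chromosome, between positions 7013 and 10173. In the mouse nuclear genome, chromosome 1 carries a copy of this stretch, annotated as a row of pseudogenes. Of the 50-base windows of mt-Co2, mt-Atp6, mt-Co3, mt-Nd4l and mt-Nd3, from 98% to 100% also occurred in another annotated transcript, and over the aligned bases the copies were 99.7% to 100% identical. The share was 62.2% for mt-Nd4 and 51.1% for mt-Co1, which lie across the ends of the copy. For mt-Co1, 765 of 1496 windows were shared with 3 genes in all, and 430 of the 765 with Gm29216 of the copy. The share was 7.61% for mt-Nd5, 8.19% for mt-Nd2 and 0% for mt-Nd1, mt-Nd6 and mt-Cytb. mt-Atp8, with 8, 3 and 1 counts against 2, 1 and 0, had no shared window with an annotated gene, overlaps mt-Atp6, and was below the filter. The 7 pseudogenes had 562, 582 and 546 counts in the control and 507, 546 and 630 in the LPS libraries, and the 6 genes 436, 528 and 540 against 402, 455 and 492. The treatment of reads with more than one best position is not given in the sources used here, so that for these genes low counts cannot be told apart from low levels. The log2 fold changes of the 5 tested were 0.18 (mt-Co2), -0.10 (mt-Atp6), -0.08 (mt-Co3), -0.32 (mt-Nd3) and -0.60 (mt-Nd4l). None of these was called in the fit reported.

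The first bases of mt-Co2 (chrM:7013-7132, plus strand) are shown with those of its copy Gm28661 (chr1:24615446-24615565, minus strand), because reads from such a stretch have 2 positions that cannot be told apart. The stretch of mt-Co1 at the edge of the copy (chrM:6381-6500, plus strand) is shown with Gm29216 (chr1:24616078-24616197, minus strand), because it holds all 6 bases that differ over 492 aligned bases. Sequences are from GRCm38, and capitals mark bases that differ.
mt-Co2: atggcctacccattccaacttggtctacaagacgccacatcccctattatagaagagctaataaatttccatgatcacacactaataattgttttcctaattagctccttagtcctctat
Gm28661: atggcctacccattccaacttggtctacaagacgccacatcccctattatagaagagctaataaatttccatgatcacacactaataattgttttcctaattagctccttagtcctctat
mt-Co1: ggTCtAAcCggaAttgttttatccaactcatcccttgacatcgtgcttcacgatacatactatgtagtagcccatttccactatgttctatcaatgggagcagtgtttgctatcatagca
Gm29216: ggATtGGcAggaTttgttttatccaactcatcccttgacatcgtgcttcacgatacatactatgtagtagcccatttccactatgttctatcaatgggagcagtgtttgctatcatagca
mt-Co2 and Gm28661 are identical over all 681 aligned bases.

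**Figure D5:**
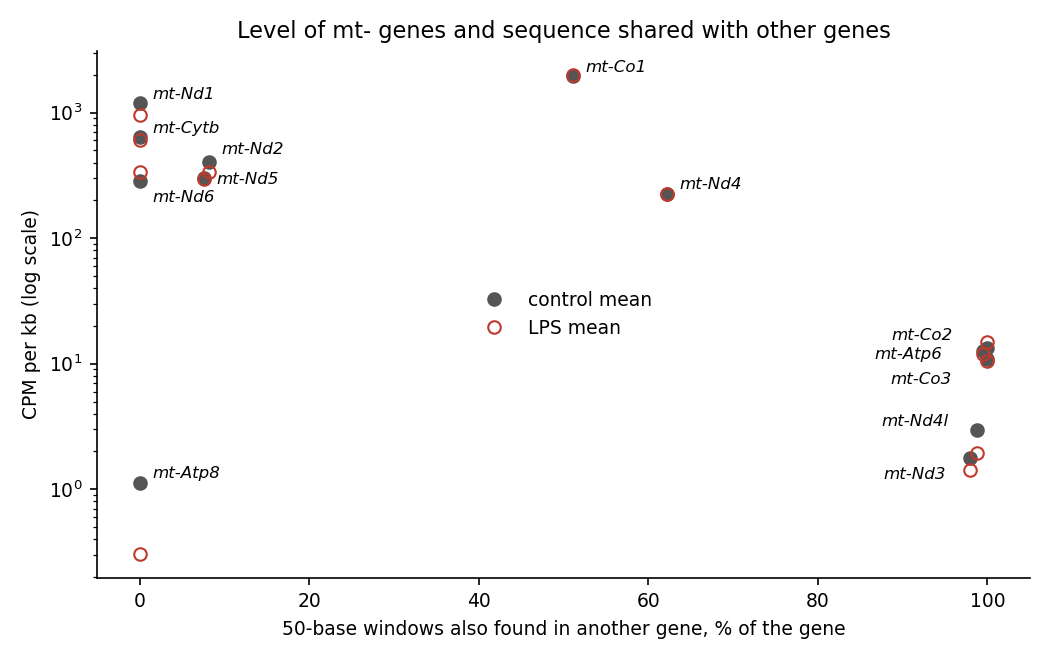
CPM per kb (log scale) of the 13 mitochondrially encoded members, as means of the control and of the LPS libraries, against the percentage of each gene's 50-base windows that also occur in another annotated gene. The 5 members at 98% or more lie between 1.42 and 15 CPM per kb, the 7 members at 62.2% or less other than mt-Atp8 lie at 224 or more, and mt-Atp8 stands apart at 0%.

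Set beside each other per kilobase in the control libraries, the highest nuclear members were Atp5a1 at 723, Cox8a at 509 and Atp5b at 478 CPM per kb, between mt-Nd1 and mt-Nd2. The lowest of the nuclear members tested included Ndufb2 at 0.559 and Atp5s at 1.89 CPM per kb.

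Of the rest of the pathway, complex II, the succinate dehydrogenase encoded wholly in the nucleus, had 0 of 4 genes called. Sdha, Sdhb, Sdhc and Sdhd had log2 fold changes of -0.02, -0.05, -0.04 and -0.02. Cycs, cytochrome c, went from 249 ± 9.31 to 270 ± 9.02 CPM (SD, n = 3) without overlap and was not called (log2 fold change 0.11, edgeR adjusted p = 0.0642). Counts of called genes in the lists below stand beside 18.7% higher and 15.7% lower among all genes tested, and no list was tested as a set. Of 47 tested assembly factors and related genes for complexes I, III, IV and V, 3 were higher and 4 lower. Ndufab1 (log2 fold change 0.08) and Atpif1 (0.13) were counted in these lists, although neither is an assembly factor in the strict sense, and neither was called. Ttc19, which acts in complex III turnover, rose from 26.5 ± 1.7 to 37.7 ± 0.752 CPM (SD, n = 3, log2 fold change 0.51, edgeR adjusted p = 6.0e-05), and Coa5 of complex IV assembly rose by 0.36 on the log2 scale. Bcs1l, which inserts the Rieske protein into complex III, fell by 0.34, Ndufaf7 of complex I assembly fell by 0.31 and Atpaf2 of complex V assembly fell by 0.29 on the log2 scale. Among 13 genes for the copying and transcription of mitochondrial DNA, Polrmt, the mitochondrial RNA polymerase, fell from 99.2 ± 3.94 to 84 ± 5.28 CPM (SD, n = 3, log2 fold change -0.24, edgeR adjusted p = 0.00302), while Tfam had a log2 fold change of 0.02 and was not called. Of 15 genes for processing and decay of mitochondrial RNA, 4 were higher and 0 lower, led by Pnpt1, a mitochondrial exoribonuclease also known as an interferon-stimulated gene, with 77.6 ± 3.39 and 106 ± 2.78 CPM (SD, n = 3, log2 fold change 0.46, edgeR adjusted p = 3.2e-06). Esrra, described above with the promoters, had 95.8 ± 9.73 and 128 ± 6.84 CPM (SD, n = 3, log2 fold change 0.42, edgeR adjusted p = 1.4e-04). Of 6 carriers of ATP and phosphate, Slc25a3, the phosphate carrier, was higher by 0.11 on the log2 scale (edgeR adjusted p = 0.0168).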

How the data were processed

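The authors deposited raw counts per gene for 6 libraries, with no normalization, and a table of their own comparison with fold changes and p-values, which was not used. The submitters' processing notes name featureCounts 1.5.0-p3 and the genome build mm10. The aligner, strand and the handling of reads with several positions are not given in the sources used here. Groups were taken from the labels. The counts were tested with edgeR 4.0.16 (R 4.3.3) by the quasi-likelihood test with TMM scaling, filterByExpr by group, a prior count of 0.125 and no replicate term. p-values were adjusted by Benjamini-Hochberg over 12296 genes. The standard error is the log2 fold change divided by the square root of F. A count of 3 corresponds to 0.161 to 0.19 CPM, and counting limits cover counting error only. Replicates of a group differed by 3.56 to 7.74 in chi-square per gene and were each counted as 1 sample.

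Alternatives were DESeq2 1.42.0, RLE factors, total counts alone, library sizes without mt- genes, no filter, a mean of 10 counts, protein-coding genes alone, robust dispersion, a replicate block, removal of a gene-length trend (lowess span 0.3) with and without the block, other denominators of the shares, and each library left out. Fits without 2 libraries were added after the data had been seen. Fits were tested on simulated data. Coding lengths and 50-base windows came from GENCODE M21, with Python 3.11.15, pandas 2.3.3 and matplotlib 3.10.9. The members and lists were chosen with earlier results of these data known. Genes named are all tested mt- members, per nuclear complex the 3 called members with the largest change and a mean of at least 50 counts, subunits with tissue forms, fixed genes outside the members, and per outside list the called gene with the largest change. Others are named only for context, after their values had been seen.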

Additional observations from a re-analysis of the deposited data

How the results depend on the processing

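Scaling by total counts alone lowers the values of all genes together, by 0.09 at the median, so that members near 0 change sign by construction. The 16 nuclear calls did not change sign. In this fit 1520 genes of all tested were higher and 3339 lower, 5 nuclear members were higher and 6 lower, the nuclear median was -0.03 against -0.09 over all genes, and the sign changed for 34 of 75 nuclear members and 1 of 12 mitochondrially encoded ones, none of them called in either fit and none over 0.09 in size in the fit reported. These included mt-Co1 (-0.07), Cox4i1 (-0.02), Cox8a (-0.01), Ndufa4 (-0.01), Atp5g1 (-0.08), Atp5g2 (-0.09) Cox7a2l (-0.05), Atp5b (-0.05), Cyc1 (-0.08), Uqcrfs1 (-0.05), Uqcrc1 (-0.08) and Uqcrc2 (-0.09). The difference between groups in the nuclear share of counts was -0.03 percentage points over all counts and 0.063 over the TMM-normalized library size. Without the filter on low counts 1 nuclear member was lower and 1 mitochondrially encoded member higher, and removing the length trend, with or without the block, gave 1 nuclear member lower. DESeq2 called 1 mitochondrially encoded member lower and robust dispersion 0. The cause was not tested.

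Leaving out each library in turn gave 9 to 19 nuclear members higher (10 without control 2, 9 without LPS 3, 19 without control 1) and 0 to 1 lower, 0 to 2 mitochondrially encoded members higher and 1 to 2 lower, and a median from 0.02 to 0.08 (nuclear) and from -0.18 to 0.03 (mitochondrially encoded). The sign changed in at least 1 of these fits for 23 nuclear and 7 mitochondrially encoded members. It changed for 17 nuclear members without control 2. None was called in the fit reported or in a fit where its sign changed. Ndufb8, 1 of the 23, was called higher without control 1, where its sign did not change. Members that changed sign included mt-Co1 (-0.07 to 0.13), mt-Cytb (-0.18 to 0.02), mt-Nd5 (-0.14 to 0.11), mt-Nd4 (-0.13 to 0.13), mt-Co3 (-0.21 to 0.05), mt-Atp6 (-0.18 to 0.00), mt-Nd3 (-0.60 to 0.01), Cox6a1 (-0.05 to 0.02), Cyc1 (-0.03 to 0.04) and Uqcrc2 (-0.04 to 0.03).

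Alternatives added after the data had been seen left out 2 libraries. Without control 2 and LPS 3, 7 nuclear members were higher, and 17 nuclear members and 1 mitochondrially encoded member changed sign, among them mt-Nd5 (0.03), Ndufa4 (0.00) and Cox7a2l (0.00). Without control 2 and control 3, where the lone control library is assumed to vary like the LPS libraries, 1151 genes were lower in all, 9 nuclear members were higher and 2 lower, 1 mitochondrially encoded member (mt-Nd6) was higher and 0 were lower. The medians were then 0.01 (nuclear) and 0.17 (mitochondrially encoded), and the shares of counts differed by -0.075 and 0.014 percentage points. mt-Cytb (0.13), mt-Nd5 (0.23), mt-Nd4 (0.24), mt-Co3 (0.21), mt-Atp6 (0.05), Atp5g3 (-0.02) and Cox7a2l (-0.03) were among 25 nuclear and 5 mitochondrially encoded members that changed sign, none of them called in either fit.

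With the replicate number as a block, 18 nuclear members were higher, and 1 mitochondrially encoded member (mt-Nd6, adjusted p = 0.0113) was higher and 2 lower. Same-numbered libraries had correlations of deviations of 0.131, 0.048 and 0.005, so the numbers were not taken as pairs, and control 2 correlated best with LPS 3 (0.077). The 5 tested mitochondrially encoded genes with at most 204 counts per library have standard errors of their log2 fold changes from 0.14 to 0.46.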
